A study of Rattus norvegicus with 9 samples.

Results

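The miR-181 family is described here through rno-miR-181a-5p, rno-miR-181b-5p and rno-miR-181c-5p, the 3 members chosen by name, out of 201 mature miRNAs in the deposited table. All 3 had reads in at least 1 library and all 3 were among the 94 miRNAs tested. The small RNA came from exosomes, small membrane vesicles that cells release, of primary macrophages washed from the peritoneum of untreated rats and kept in medium with 10% FBS (bovine serum). The LPS+AS-IV group was given 150 µM astragaloside IV (AS-IV), a plant saponin, for 24 h and then lipopolysaccharide (LPS), a bacterial cell wall component, at 100 ng/ml for 6 h. LPS cultures received LPS alone at the same dose and time. Control cultures received 0.1% DMSO for 24 h. The labels say that both agents were dissolved in DMSO but give a final DMSO level for Control alone, so solvent and treatment cannot be told apart in comparisons with Control. They give no 24 h solvent step for LPS. In LPS+AS-IV against LPS, AS-IV, its solvent and its 24 h therefore cannot be told apart either. There were 3 libraries per group. Nothing in the labels says that replicates came from different animals or cultures. The p-values therefore reflect only the spread of these libraries, which may be technical.

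A miRNA guides a silencing complex to messenger RNAs, mainly by pairing of its seed, the bases near its 5′ end, so members that share a seed can share targets. The miR-181 genes lie in clusters that each pair an a with a b gene, or the c with the d gene. In mice, miR-181 is known for tuning T-cell receptor sensitivity during thymocyte development, and it is made in many haematopoietic cells.

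The mature sequences show how little separates the members and which bases tell their reads apart. They are from RefSeq (rat assembly GRCr8), written 5′ to 3′, with the seed (bases 2 to 8) in capitals.
miR-181a-5p: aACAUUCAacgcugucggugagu
miR-181b-5p: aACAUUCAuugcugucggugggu
miR-181c-5p: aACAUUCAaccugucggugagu
miR-181d-5p: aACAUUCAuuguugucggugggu
Counting positions from 1 at the 5′ end and giving the miR-181a-5p base first, miR-181b-5p differs by A9U, C10U and A21G. miR-181c-5p differs by a deletion of G at position 11, which makes it 22 nt long against 23 nt for the others. miR-181d-5p, the remaining RefSeq rat name with this seed, has the differences of miR-181b-5p and C12U. miR-181a-5p comes from Mir181a2 (chr3:43025601-43025623, plus strand) and Mir181a-1 (chr13:52037081-52037103, plus strand). The second site lies beside Mir181b1, which gives miR-181b-5p (chr13:52037263-52037285, plus strand). Mir181c (chr19:40888314-40888335, plus strand) and Mir181d (chr19:40888484-40888506, plus strand) are also neighbours. The hairpin of Mir181b2 also holds the miR-181b-5p sequence. A read of miR-181a-5p or of miR-181b-5p cannot be given to 1 of its genes.

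Assigned reads of all RNA classes were between 3484099 and 9527483 per library. Reads in the miRNA table were fewer and uneven, with 15426 for LPS+AS-IV 1, 546599 for LPS+AS-IV 3 and 25483 to 75528 in the other libraries. No replicate pair was alike within sampling noise. The macrophage and myeloid marker list (5 of 6 markers in the table) summed to 0.718 to 7.19% of table reads in LPS+AS-IV, 1.10 to 3.76% in LPS and 2.12 to 4.94% in Control. miR-146a-5p carried most of this sum in every library, with 6.10 of 7.19% in LPS+AS-IV 2. miR-142-3p was not in the table, and miR-142-5p was at most 0.128%. miR-223-3p, a myeloid marker, was at most 0.356% and had 0 reads in LPS+AS-IV 1, LPS 1 and LPS 2. Markers of other cells were also present, with the erythroid pair at 2.72 to 4.78% and the lymphocyte pair at 1.42 to 4.30% over the 9 libraries. The endothelial pair summed to 0.195 to 1.38% and the mesothelial and epithelial list (4 of 5 in the table) to at most 0.137%. Fewer vesicles from a cell type and fewer copies per vesicle cannot be told apart in such samples.

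miR-181a-5p was among the 3 most abundant miRNAs of every library and ranked first in 5 of 9. It had 1253, 4624 and 82097 reads in LPS+AS-IV, 2997, 9125 and 8678 in LPS, and 4016, 3729 and 7963 in Control. As shares of table reads these were 8.12%, 6.72% and 15.02% in LPS+AS-IV, 11.8%, 13.9% and 14.1% in LPS, and 9.52%, 12.1% and 10.5% in Control. The LPS+AS-IV libraries held both the lowest share and the highest one, and their range spanned the other groups. The 3 members together made up 7.94 to 17.5% of table reads in LPS+AS-IV, 12.1 to 15.4% in LPS and 10.0 to 12.8% in Control.

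miR-181b-5p was the second member in level. It had 252, 805 and 13762 reads in LPS+AS-IV, 98, 661 and 814 in LPS, and 134, 195 and 419 in Control. Its shares of table reads were 1.63%, 1.17% and 2.52% in LPS+AS-IV, 0.385%, 1.01% and 1.32% in LPS, and 0.318%, 0.632% and 0.555% in Control. All 3 LPS+AS-IV libraries lay above all 3 Control libraries, while the LPS libraries overlapped both groups.

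miR-181c-5p was rare. It had 0, 39 and 0 reads in LPS+AS-IV, 0 in each LPS library, and 76, 17 and 1 in Control. It was present in every Control library and in no LPS library, but Control 3 held a single read. A count of 0 allowed up to 0.0194% and 0.000549% of the table in LPS+AS-IV 1 and LPS+AS-IV 3, and up to 0.0118% in LPS 1, the shallowest LPS library. Such limits, of 3 reads, and the intervals given below cover counting error only, since PCR reads without molecular identifiers are not independent molecules. miR-181d-5p had 11 reads in all and was not tested. The order miR-181a-5p, miR-181b-5p, miR-181c-5p held in every library, while miR-181c-5p was below miR-181d-5p in LPS+AS-IV 3 and in LPS 3.

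**Figure D1:**
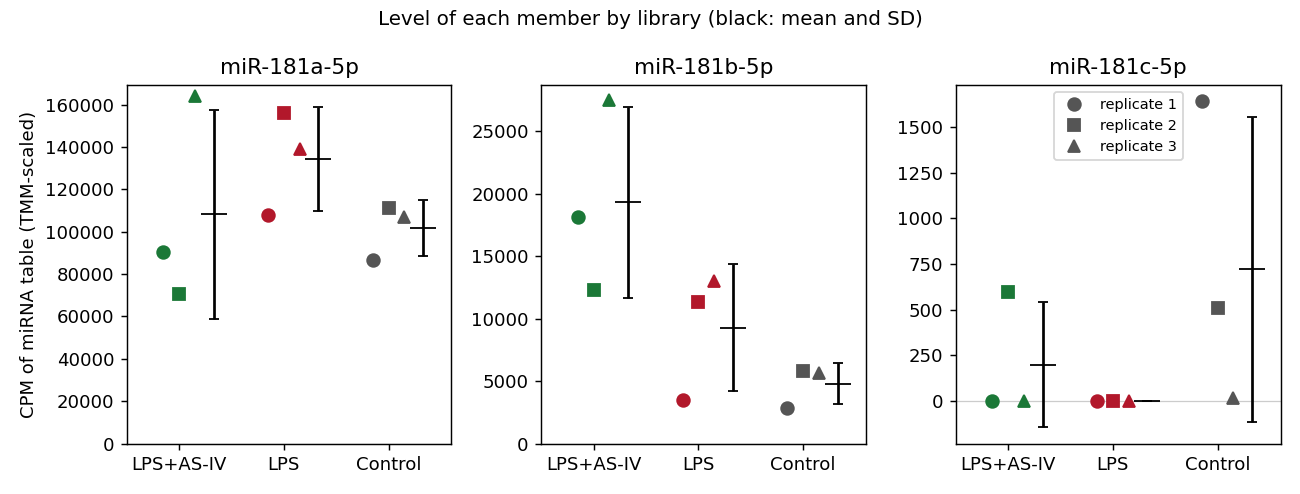
Level of miR-181a-5p, miR-181b-5p and miR-181c-5p in each of 9 libraries (points; shape gives the replicate number), in CPM (reads scaled to a common total of the miRNA table, here with TMM factors), with the group mean and SD in black; each panel has its own axis. The LPS+AS-IV points of miR-181b-5p lie between 12271 and 27492 CPM, above the Control points at 2893 to 5824 CPM, while the miR-181a-5p groups overlap.

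The first question was how astragaloside IV followed by LPS differed from Control. Of the members, miR-181b-5p stood highest in LPS+AS-IV relative to Control, miR-181a-5p had a similar mean CPM in both, and none passed the test. On the TMM-scaled CPM scale, miR-181b-5p averaged 19313 ± 7674 in LPS+AS-IV and 4783 ± 1639 in Control (SD, n = 3 each). The groups did not overlap, as was the case in this direction for 5.32% of the 94 tested miRNAs. The fitted log2 fold change was 2.01 (SE 0.61), which did not pass edgeR's quasi-likelihood test with Benjamini-Hochberg adjustment (adjusted p = 0.167). By unadjusted p it was rank 3 of 94, and 2 of 94 (2.13%) passed, let-7a-5p and miR-3596a, neither of them a member. These were chosen for mention after their values were seen, and the authors gave let-7a-5p 0 reads in every Control library. Mean CPM of let-7a-5p was 0 in Control and 87455 in LPS+AS-IV, while that of miR-3596a was 79063 and 52.4. With each tag given to 1 miRNA, 0 miRNAs passed, so both calls depended on how tags were named. Without LPS+AS-IV 2 the log2 fold change of miR-181b-5p was 2.32 and its adjusted p 0.0388 in the same edgeR test. Over all alternatives its adjusted p lay between 0.0388 and 0.977.

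Some marker sums also separated LPS+AS-IV from Control. The liver and serum markers miR-122-5p and miR-192-5p (both of the list's 2 in the table) summed to 0.465 to 0.558% of table reads in LPS+AS-IV and 0.143 to 0.356% in Control, without overlap. miR-122-5p carried this, while miR-192-5p was at 0, 0 and 0.0893% in LPS+AS-IV and 0, 0.123% and 0 in Control. miR-122-5p did not follow miR-181b-5p library by library. It was highest in LPS 1 at 0.961%, where miR-181b-5p was at 0.385%. Within LPS+AS-IV it was lowest in replicate 3 at 0.375%, where miR-181b-5p was highest at 2.52%. The erythroid markers miR-451-5p and miR-486 summed to 3.04 to 3.54% in LPS+AS-IV and 4.07 to 4.78% in Control, but each of them overlapped when taken alone. The macrophage and myeloid, lymphocyte, endothelial, and mesothelial and epithelial lists overlapped between these groups. Sums of markers, here and in the other comparisons, have no share over all miRNAs beside them. The part of these markers in the higher miR-181b-5p was not tested.

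The mean CPM of miR-181a-5p was 108287 ± 49265 in LPS+AS-IV and 101699 ± 13168 in Control (SD over 3 libraries each). Its log2 fold change was 0.09 (SE 0.30, adjusted p = 0.981 in the edgeR test), and the sign of so small a value turned under 3 of 11 other settings and without LPS+AS-IV 3 or LPS 1. With all assigned reads as library size it was 2.54 (SE 1.90, edgeR adjusted p = 0.554). miR-181c-5p had a log2 fold change of -1.83 with an SE of 3.01 (edgeR adjusted p = 0.981), and the only LPS+AS-IV library with table reads lay between Control 1 and Control 2 at 595 CPM, against 1641, 508 and 13.4 CPM in Control. The log2 value was -0.39 without Control 1 and -2.61 without Control 3, and without LPS+AS-IV 2, which leaves LPS+AS-IV at 0 reads, the fitted -9.15 measures no size.

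The next question was whether astragaloside IV before LPS differed from LPS alone. No miRNA passed edgeR's test (0%), 3 were under 0.05 before adjustment, and 1 that was no member passed by DESeq2. The mean CPM of miR-181b-5p was 19313 ± 7674 in LPS+AS-IV and 9298 ± 5073 in LPS (SD over 3 libraries each). LPS 3 at 13051 CPM lay above LPS+AS-IV 2 at 12271 CPM, so the groups overlapped. The fitted log2 change was 1.05 (SE 0.59, edgeR adjusted p = 0.963). miR-181a-5p pointed the other way, with a mean CPM of 108287 ± 49265 in LPS+AS-IV and 134399 ± 24536 in LPS, and a log2 fold change of -0.31 (SE 0.30, edgeR adjusted p = 0.963), which was 1.72 with all assigned reads as library size. For miR-181c-5p the mean in LPS+AS-IV was at least 2.87-fold higher than the floor of 3 reads per library in LPS. That bound came from LPS+AS-IV 2 alone and was 0 without it.

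The last comparison set LPS alone against Control. Of the 94 tested, 1 (1.06%) passed the edgeR test, let-7a-5p, and no member did. Its mean CPM was 0 in Control and 72710 in LPS, while that of miR-3596a was 79063 and 2236. With each tag given to 1 miRNA, 0 miRNAs passed, so this call too depended on how tags were named. miR-181a-5p averaged 134399 ± 24536 CPM in LPS and 101699 ± 13168 CPM in Control, a log2 fold change of 0.40 (SE 0.30, edgeR adjusted p = 0.854), with LPS 1 at 107838 CPM below Control 2 at 111378 CPM. miR-181b-5p averaged 9298 ± 5073 CPM in LPS and 4783 ± 1639 CPM in Control, a log2 fold change of 0.96 (SE 0.59, edgeR adjusted p = 0.802), with LPS 1 below Control 2 and Control 3. miR-181c-5p had reads in each Control library and 0 in each LPS library, and 11.7% of the tested miRNAs had lower CPM in every LPS library than in every Control library. The floor of 3 reads was between 48.1 and 108 CPM in LPS, below Control 1 and Control 2 but above the single read of Control 3 at 13.4 CPM, so LPS cannot be placed below Control 3. Its mean was at least 10.4-fold lower in LPS, with the floor of 3 reads per library in place of 0, and at least 3.77-fold lower without Control 1. Its edgeR adjusted p was 0.662. Of the marker lists of other cells, only the endothelial and erythroid pairs were also lower in LPS without overlap. The liver and serum pair leaned the other way with overlap, at 0.320 to 1.02% of table reads in LPS and 0.143 to 0.356% in Control. The lymphocyte pair and the mesothelial and epithelial list overlapped. The endothelial pair, of which miR-126a-5p was at 0 in Control and miR-126a-3p carried the reads, summed to 0.195 to 0.472% of table reads in LPS and 0.745 to 1.38% in Control. The erythroid pair summed to 2.72 to 3.97% in LPS and 4.07 to 4.78% in Control. Within it miR-486 separated, at most 0.326% in LPS and at least 0.680% in Control, while miR-451-5p overlapped. The part of these markers in the lower miR-181c-5p was not tested. These comparisons share libraries, so their values for a member are not independent of each other.

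The ratio of miR-181b-5p to miR-181a-5p within a library needs no scaling to the rest of the table. This ratio was higher in LPS+AS-IV than in either other group. miR-181b-5p had 20.1, 17.4 and 16.8 reads per 100 reads of miR-181a-5p in LPS+AS-IV, 3.27, 7.24 and 9.38 in LPS, and 3.34, 5.23 and 5.26 in Control. All LPS+AS-IV libraries lay above all others, and the LPS and Control libraries overlapped. The share of miR-181b-5p in the summed reads of both had exact 95% intervals of 13.9 to 15.8% in LPS+AS-IV 2 and 8.02 to 9.16% in LPS 3.

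The group means were 18.1 ± 1.78 in LPS+AS-IV, 6.63 ± 3.10 in LPS and 4.61 ± 1.10 in Control (SD, n = 3 each). On the log2 scale (0.5 added to each count), LPS+AS-IV exceeded Control by 1.997 (SE 0.23), which is 3.99-fold, with an exact two-sided permutation p of 0.1, or 0.15 adjusted over the 3 comparisons. LPS+AS-IV exceeded LPS by 1.57 (SE 0.46), or 2.97-fold, with the same exact permutation p of 0.1 and adjusted p of 0.15. LPS exceeded Control by 0.42 (SE 0.50), an exact permutation p of 0.5. With 3 libraries against 3 the smallest p possible is 0.1, so this design cannot pass 0.05. Among the 93 other tested miRNAs set against miR-181a-5p in the same way, 4.3% separated upward in LPS+AS-IV against Control and 9.68% in LPS+AS-IV against LPS, miR-181b-5p included. The ratio shows unequal change of the pair and does not say which member changed.

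**Figure D2:**
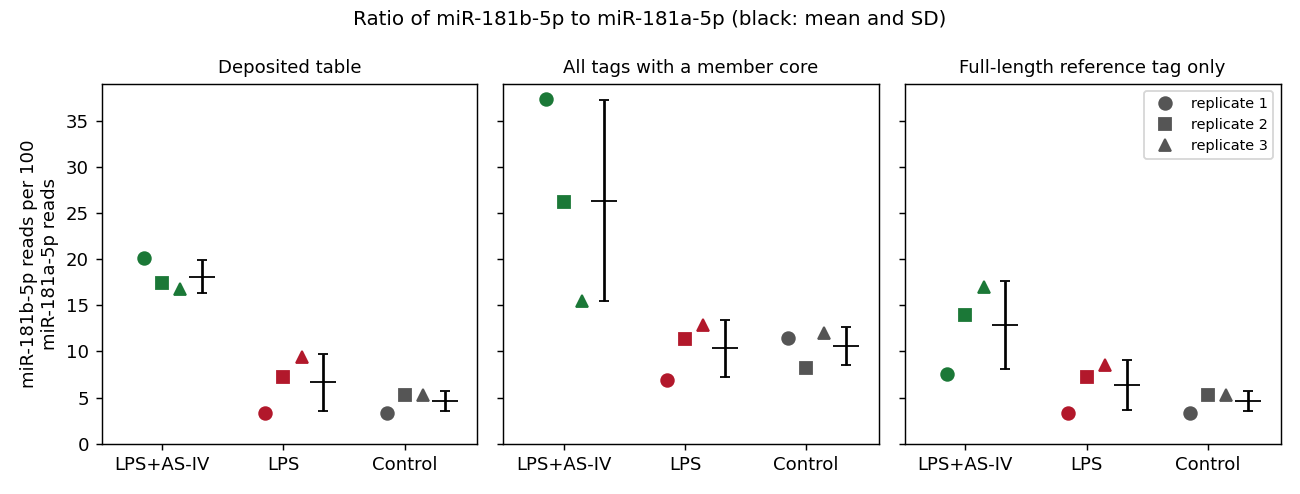
Reads of miR-181b-5p per 100 reads of miR-181a-5p in each library by 3 ways of counting (panels), with the group mean and SD in black. The LPS+AS-IV points lie above all others at 16.8 to 20.1 in the deposited table and at 15.5 to 37.3 with all tags counted, while LPS+AS-IV 1 falls to 7.58 among LPS points when the reference-length tag alone is counted.

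The table held only part of the reads that carry a member's sequence. It equalled the tags that the authors labelled mature, while tags 1 base longer or 1 to 2 bases shorter were labelled hairpin, and tags 2 bases longer or 3 bases shorter went to an Rfam family. Reads were therefore also counted by the member's core, bases 2 to 14 (2 to 13 for miR-181c-5p), whatever label the tag had, a count chosen after the data were seen. It gave 166769 reads of miR-181a-5p, of which 74.6% were in the table, 24955 of miR-181b-5p (68.7%), 1034 of miR-181c-5p (12.9%) and 83 of miR-181d-5p (13.3%). There were 234 such tags, and 1 of them had different assignments in different libraries. Only miR-181 names were counted by core, so separations of groups in core counts have no share over all miRNAs beside them.

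The leading forms of miR-181b-5p show what the labels separated, with added 3′ bases in capitals.
miR-181b-5p, labelled mature: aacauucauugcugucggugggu
1 base longer, labelled hairpin: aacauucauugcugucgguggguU
2 bases longer, in Rfam: aacauucauugcugucgguggguUU
3 bases longer, labelled mature: aacauucauugcugucgguggguUUU
The RefSeq hairpins of Mir181a2, Mir181b2 and Mir181c continue with 2 U after the mature end, so the first 2 added U can be templated or added, which cannot be told apart. The form ending in 3 U had 40, 162 and 0 reads in LPS+AS-IV, 0, 0 and 72 in LPS, and 1, 0 and 0 in Control.

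The share of core reads of miR-181b-5p that the table held was 31.5%, 44.0% and 81.5% in LPS+AS-IV, 36.2%, 51.4% and 54.1% in LPS, and 18.8%, 48.5% and 32.99% in Control. It varied more within LPS+AS-IV than between the groups. For miR-181a-5p it was 58.5%, 66.1% and 75.4% in LPS+AS-IV, 76.2%, 80.3% and 73.8% in LPS, and 64.7%, 76.2% and 75.2% in Control. The table thus left out a larger share of miR-181b-5p than of miR-181a-5p in every library but LPS+AS-IV 3.

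With all core tags, miR-181b-5p had 37.3, 26.1 and 15.5 reads per 100 of miR-181a-5p in LPS+AS-IV, 6.89, 11.3 and 12.8 in LPS, and 11.5, 8.22 and 12.0 in Control. LPS+AS-IV again lay above both groups without overlap, but its spread grew and LPS+AS-IV 3 came nearest to LPS 3. LPS+AS-IV exceeded Control 2.37-fold and LPS 2.47-fold (exact permutation p of 0.1 each), against 3.99-fold and 2.97-fold in the table. LPS was no longer above Control, with a log2 difference of -0.06 (exact permutation p = 0.8). With the reference-length tag alone, LPS+AS-IV exceeded LPS 2.07-fold but the groups overlapped through LPS+AS-IV 1 (exact permutation p = 0.2). In that library this tag held 95 of the 252 table reads of miR-181b-5p but all 1253 of miR-181a-5p. Its high ratio in the table thus came mostly from other tags labelled mature.

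Read forms differed between the members and between libraries. Of miR-181a-5p core reads, 66.4 ± 8.06% in LPS+AS-IV, 76.7 ± 3.27% in LPS and 71.3 ± 6.77% in Control had the reference sequence and length (SD, n = 3 each). Of miR-181b-5p core reads, the shares were 42.9 ± 35.4% in LPS+AS-IV, 45.6 ± 8.24% in LPS and 33.3 ± 14.9% in Control. The large SD of LPS+AS-IV came from 11.9% in replicate 1, 35.2% in replicate 2 and 81.5% in replicate 3.

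In LPS+AS-IV 1, 52.8% of miR-181b-5p core reads (exact 95% interval 49.3 to 56.3) ended in 2 or more added U, while LPS+AS-IV 3 had 0 of 16879 such reads. Reads 1 U longer made up 18.7 ± 6.76% of miR-181b-5p in LPS+AS-IV, 30.6 ± 8.87% in LPS and 29.0 ± 10.3% in Control. For miR-181a-5p they made up 11.6 ± 7.59%, 6.72 ± 1.11% and 9.55 ± 1.80% in the same groups. For miR-181a-5p the LPS libraries, at most 7.96%, lay below the Control libraries, at least 8.49%, and the groups otherwise overlapped in these shares.

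A shifted 5′ end changes the seed. In LPS+AS-IV 2, 247 of 1828 miR-181b-5p core reads (13.5%) began at base 2, as did 25 of 714 in Control 1, and the other 7 libraries had 0. Of miR-181a-5p reads, 24 of 11758 in LPS 3 began at base 2. The commonest shifted tag, whose own seed is in capitals, had 124 reads, all in LPS+AS-IV 2.
miR-181b-5p from base 2: aCAUUCAUugcugucgguggguu

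**Figure D3:**
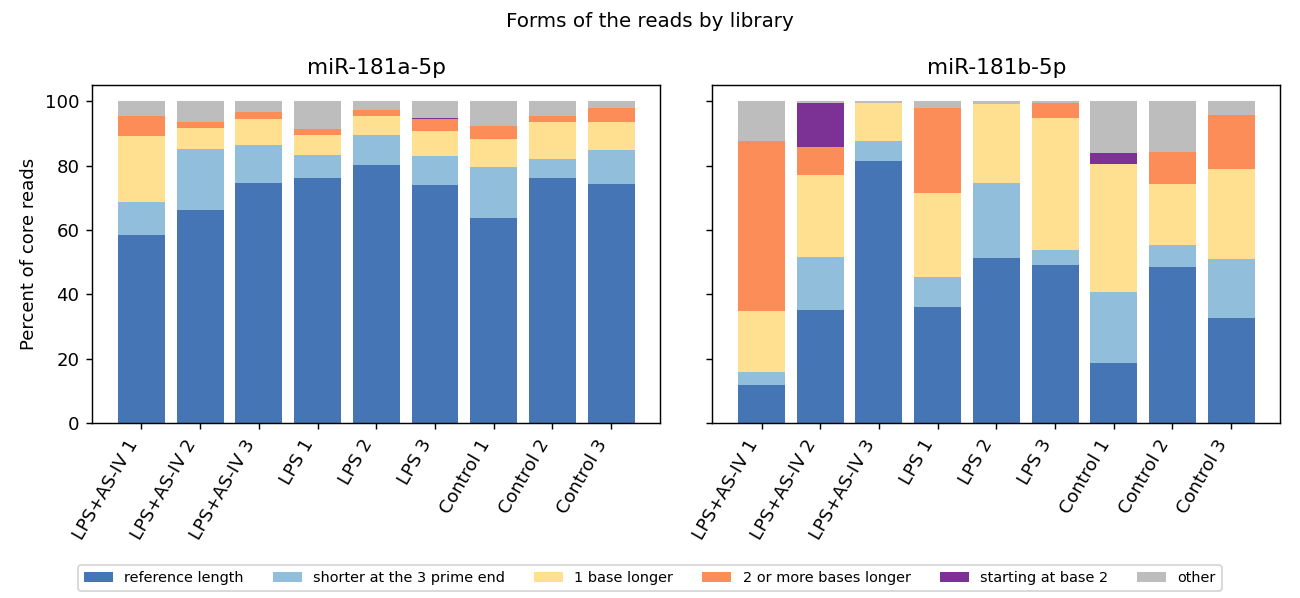
Forms of the miR-181a-5p (left) and miR-181b-5p (right) core reads in each library, as stacked percentages of the member's core reads. The miR-181b-5p bars vary most within LPS+AS-IV, where the reference length holds 11.9% in replicate 1 and 81.5% in replicate 3.

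Counting by the core also changed the picture of miR-181c-5p. It then had 41, 44 and 855 reads in LPS+AS-IV, 0 in each LPS library, and 76, 17 and 1 in Control. All LPS+AS-IV libraries and all Control libraries held reads, and no LPS library did. As a share of the 3 members' core reads this was 1.37%, 0.496% and 0.675% in LPS+AS-IV and 1.09%, 0.320% and 0.00844% in Control. In LPS, 0 of 4206, 12655 and 13264 reads allow up to 0.0713%, 0.0237% and 0.0226%, below every LPS+AS-IV share and below Control 1 and Control 2 but not Control 3. How many other miRNAs would separate in this way by core counts is not known, since they were not recounted.

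The miR-181c-5p reads were carried by a different tag in each LPS+AS-IV library. LPS+AS-IV 1 had 40 of its 41 reads on a tag 2 U longer than the reference, and LPS+AS-IV 2 had 39 of its 44 on the reference. LPS+AS-IV 3 had all 855 on 1 tag 2 bases shorter than the reference and 0 on the reference, beside 82097 table reads of miR-181a-5p. In the same library, the miR-181a-5p tag with C10U also had 855 reads, and at most 9 in any other. The tag 2 U longer, labelled Rfam, and the shorter tag, labelled hairpin, show which molecules the table left out.
miR-181c-5p, 2 bases longer: aacauucaaccugucggugaguUU
miR-181c-5p, 2 bases shorter: aacauucaaccugucgguga

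**Figure D4:**
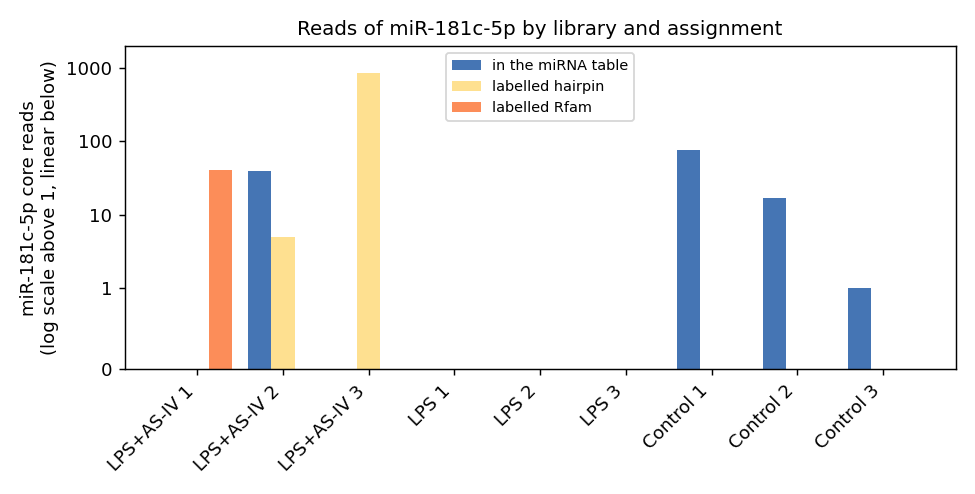
Reads holding the miR-181c-5p core in each library, split by the label the authors gave the tag (log scale above 1, linear below). The 3 LPS libraries have 0 reads, and 855 reads of LPS+AS-IV 3 are labelled hairpin and so outside the miRNA table.

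The opposite strands of the hairpins, the 3p arms, were looked for among tags of 19 nt or more with at most 2 differences from a RefSeq 3p sequence over its first 19 bases. The miR-181a-2-3p arm had 809 reads in all, with 7, 109 and 657 in LPS+AS-IV, 14, 0 and 0 in LPS, and 21, 0 and 1 in Control. None was identical to the rat sequence over that stretch, 53 had 1 difference and 756 had 2. The miR-181a-1-3p arm had 22 identical reads, which the authors labelled miR-3570, and the other arms had 0. The 5p sequences do not tell rat RNA from RNA of the serum in the medium, and serum as a source of the 5p or 3p reads was not tested.

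In RPM over the assigned reads of all RNA classes, core reads of miR-181a-5p ranged from 225 to 16252 over the 9 libraries and those of miR-181b-5p from 29.1 to 2519. LPS+AS-IV 3 was the highest for both. Compared with the whole table, the pattern of miR-181a-5p over the libraries was most like those of miR-122b (Pearson r = 0.88), miR-100-5p (0.81) and miR-129-5p (0.81), on log2(CPM + 1) values of 9 libraries. miR-122b and miR-129-5p were both at 0 CPM in LPS+AS-IV 1, LPS+AS-IV 2, LPS 1 and Control 1. miR-122b was also at 0 in Control 2, miR-129-5p in Control 3 and miR-100-5p in LPS+AS-IV 2. On this scale the r of such rare miRNAs depends largely on which libraries held any reads. For miR-181b-5p the nearest were let-7b-5p (0.73), miR-93-5p (0.66), of a proliferation-linked cluster, and let-7a-5p (0.65). let-7 miRNAs are known for restraining growth genes. let-7a-5p was at 0 CPM in every Control library and at 67790 to 102395 CPM in all others. Its r therefore mainly sets Control apart from the other groups and depends on how tags were named. miR-181a-5p and miR-181b-5p had an r of 0.37 with each other, and miR-181b-5p ranked 16 among the neighbours of miR-181a-5p. The points share scaling and treatment groups, so these values are a description.

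A list of 17 lymphoid and myeloid miRNAs gave the setting, with 12 tested and 0 past the edgeR threshold in each comparison, where 2.13%, 0% and 1.06% of all tested passed. In LPS+AS-IV against Control 10 were higher and 2 lower, against 54 higher and 40 lower over all tested. The median log2 fold change was 0.36 against 0.21 over all tested. In LPS+AS-IV against LPS 8 were higher and 4 lower, against 57 and 37, with a median of 0.48 against 0.19. In LPS against Control 8 were higher and 4 lower, against 45 and 49, with a median of 0.29 against -0.04.

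miR-150-5p, a lymphocyte miRNA that restrains Myb in mice, made up 1.42%, 3.48% and 4.06% of table reads in LPS+AS-IV, 2.55%, 2.43% and 3.12% in LPS, and 2.80%, 4.02% and 3.05% in Control. miR-146a-5p, a feedback inhibitor of Toll-like receptor signalling, made up 3.16%, 6.10% and 0.455% in LPS+AS-IV, 2.85%, 1.09% and 2.37% in LPS, and 4.44%, 2.69% and 1.66% in Control. The groups overlapped for both, and LPS+AS-IV 3, where miR-181a-5p and miR-181b-5p were highest, had the lowest miR-146a-5p share.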

How the data were processed

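Small RNA of 9 exosome libraries in 3 groups was sequenced on the BGISEQ-500 platform, per the labels' protocols. The authors deposited a table of raw read counts per mature miRNA and, per library, the count of each distinct tag with its assignment. A deposited score gives mismatches for miRNA and piRNA tags, per the file headers. A column headed exp, whole-number counts never above the reads, is of unstated origin and entered an alternative. The authors' deposited group means (signal) were not used. Bowtie2 and Rnor_6.0 are named in the submitters' processing notes without a role, and no source used here gives the adapter trimming or the miRBase release. Sequences and coordinates are those of the GRCr8 tables.

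Counts were fitted with edgeR 4.0.16 (R 4.3.3), TMM factors, filterByExpr defaults and 1 quasi-likelihood fit over 9 libraries. Of 201 miRNAs 94 were tested and 107 fell under the filter, with Benjamini-Hochberg adjustment over the 94 and a threshold of 0.05. Each SE is the log2 fold change divided by the square root of F. The common dispersion had a square root of 1.42. Member ratios were tested by exact permutation, and intervals are exact Clopper-Pearson at 95% (scipy 1.17.1). Scripts were tested on simulated data. Median log2 fold changes moved with scaling: DESeq2 (1.42.0) size factors by -0.12 for LPS+AS-IV against LPS and 0.11 for LPS against Control, library totals by -0.19 and -0.11 in LPS+AS-IV against Control and against LPS, and all assigned reads as library size by 1.39 and 1.37 in these and 0.28 in LPS against Control.

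The miRNAs named are the members, the other miR-181 products, and up to 4 of a list of lymphoid and myeloid miRNAs. For miR-181a-5p and miR-181b-5p the 3 most alike by Pearson correlation are named. Cell type markers are named too, and miR-3570 as the label of 3p tags. let-7a-5p and miR-3596a were also named as calls after their values were seen. Members and lists were chosen with earlier results of these data known.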

Additional observations from a re-analysis of the deposited data

Results flagged for a closer look

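Reads that carry a member's sequence but lie outside the miRNA table exceeded the highest Control library in some treated libraries, as RPM over the assigned reads of all RNA classes. For miR-181a-5p they reached 3999 RPM (26790 reads) in LPS+AS-IV 3, 644 (2244 reads) in LPS 2 and 345 (3080 reads) in LPS 3, against at most 319 in Control. For miR-181b-5p they reached 112 RPM (1023 reads) in LPS+AS-IV 2, 465 (3117 reads) in LPS+AS-IV 3 and 179 (625 reads) in LPS 2, against at most 104 in Control. For miR-181c-5p they were 4.30 RPM (41 reads) in LPS+AS-IV 1, 0.550 (5 reads) in LPS+AS-IV 2 and 128 (855 reads) in LPS+AS-IV 3, against 0 in each Control library. For miR-181d-5p LPS 2 had 19.5 RPM (68 reads), against at most 0.138 in Control. Tags near the miR-181a-2-3p arm were at 11.98 RPM (109 reads) in LPS+AS-IV 2 and 98.1 (657 reads) in LPS+AS-IV 3, against at most 2.91 in Control. RPM over all classes also depends on how many of a library's reads are miRNA. LPS+AS-IV 3 had 546599 table reads of 6699947 assigned, and Control 3 had 75528 of 8215970. The table held 75.4% of miR-181a-5p core reads in LPS+AS-IV 3, 80.3% in LPS 2 and 73.8% in LPS 3. In Control it held 64.7 to 76.2%. The share of miR-181a-5p left outside was thus not above the Control range in these libraries. The causes were not tested.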

How the results depend on the processing

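Of 276 recomputed values, 245 stayed the same. For fold changes and ratios this means direction and side of the threshold, and for counts of calls a change of at most 1.5 times. The ratio tests could not pass 0.05 in any setting, since their smallest possible p was 0.1, so only their direction could change. Of the other values, 20 counts of calls moved further, 10 values changed sign and 1 passed the threshold. The cause was not tested. Calls in LPS+AS-IV against Control were 0 with each tag given to 1 miRNA and 2 to 3 without 1 library. In LPS+AS-IV against LPS they were 1 with no filter, the replicate block or DESeq2, and 0 to 1 without 1 library. In LPS against Control they were 2 with library totals, no filter, the block, the exp column or core tags, 3 with 6 libraries or DESeq2, 0 with each tag given to 1 miRNA, and 1 to 3 without 1 library. The log2 fold change of miR-181a-5p in LPS+AS-IV against Control was -0.10 with library totals, -0.060 with 6 libraries, -0.20 with the exp column and -0.43 to 0.39 without 1 library. With all assigned reads as library size it was 2.54, and 1.72 against LPS. That of miR-181b-5p in LPS+AS-IV against Control was 1.58 to 2.32 without 1 library, passing only without LPS+AS-IV 2 (edgeR adjusted p = 0.0388). It was 2.001 by DESeq2 (adjusted p = 0.0503), 1.12 with tags of 0 or 1 mismatch (edgeR adjusted p = 0.977) and 4.36 with all assigned reads as library size (edgeR adjusted p = 0.222). That of miR-181c-5p in LPS+AS-IV against Control was 0.10 with tags of 0 or 1 mismatch, 1.32 with core tags, -3.08 with the replicate block and -9.15 to -0.39 without 1 library, and it had no value against LPS with 6 libraries. The log2 ratio of miR-181b-5p to miR-181a-5p in LPS against Control was -0.034 with tags of 0 or 1 mismatch and -0.061 with core tags. Deviations from the group means correlated at -0.08 to 0.17 between same-numbered libraries. With 3 libraries per group and uneven depth, this cannot tell whether they share an animal or a batch. With the replicate block miR-181b-5p had a log2 fold change of 2.08 in LPS+AS-IV against Control (edgeR adjusted p = 0.114), and the ratio differences of 1.997 and 1.57 had an exact sign-flip p of 0.25, the smallest that 3 pairs allow. Depth limits the rare miR-181c-5p and miR-181d-5p, since 3 reads were worth 5.99 CPM in the deepest library and 216 CPM in the shallowest.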
